A study of Macaca mulatta with 6 samples.

Results

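Immediate early genes are the genes that a neuron transcribes within minutes of calcium entry, from factors already present in the cell and without new protein. The signal runs from NMDA receptors and calcium channels through the ERK and calmodulin kinases to the nuclear factors SRF, CREB and MEF2. Many of the products are transcription factors of short life (the AP-1, EGR and NR4A families), and others, such as ARC, act at the synapse itself. In brain tissue the transcripts of these genes are widely used as a record of recent neuronal activity. Of 42 genes chosen for this role, 28 had a row in the deposited table of 23191 genes that a table of gene names pairs with their symbol, and all 28 reached the minimum mean of 10 normalized counts over the 6 libraries. The member with the lowest mean was NPAS4, with 45.7 normalized counts, and no member fell under the minimum. The other 14 were not analysed here: JUN, EGR1, EGR3, EGR4, IER2, BTG2, RHEB, RASL11B, DUSP1, DUSP4, DUSP5, DUSP6, MCL1 and INHBA. The EGR family was thus represented by 1 gene of 4, and the phosphatases that shut off ERK signalling (DUSP1, DUSP4, DUSP5 and DUSP6) were not represented at all.

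Polyadenylated RNA was sequenced from purified cortical neurons of rhesus monkeys (Macaca mulatta), all male and 3 to 4 years of age, in a study of chromatin folding after long exposure to morphine, an agonist of the mu opioid receptor. The morphine group (3 libraries) received subcutaneous injections 3 times daily over 90 days, with 3 mg/kg from day 1, 6 mg/kg from day 8, 9 mg/kg from day 15, 12 mg/kg from day 22 and 15 mg/kg from day 29, and the saline group (3 libraries) was given the vehicle on the same schedule. The protocol names 4 animals, 2 in each group, and the description of each library carries the same code as the others of its group, so at least 2 of the 3 libraries of a group came from 1 animal. Taken over animals, the p-values are thus too small and the intervals too narrow, and morphine and differences between animals cannot be told apart. The time from the last injection to the collection of tissue, a quantity that bears on transcripts as short-lived as these, is not given in the sources, nor is the way neurons were purified.

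Reads recovered per library lay between 31238653 and 36345095. Across genes, which are not independent replicates, libraries of 1 group correlated more closely (0.972 to 0.978) than libraries of different groups (0.950 to 0.957). Glial transcripts were abundant in these libraries labelled as neurons, where MBP, a myelin protein, was present at 202716 ± 883 normalized counts (SD, n = 3 libraries) in morphine and 192902 ± 3182 in saline libraries. A normalized count is the number of reads of a gene divided by a size factor of its library. Genes are said to have risen or fallen where their log2(normalized count + 1) differed between groups at a limma adjusted p under 0.05 over all 16595 genes tested, and differences are on that scale, morphine minus saline.

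None of the 28 immediate early genes rose with morphine and 5 fell: EGR2, SIK1, KLF10, ARC and FOSL2. Among all genes tested 12.9% rose and 15.0% fell. The 5 falls are 17.9% of the members, close to that background, so in this test the count of falls does not set these genes apart. The median log2 difference of the members was -0.05, beside 0.01 over all genes tested, and the difference was below 0 in 15 of 28 members (53.6%) and in 49.4% of all genes. The morphine values all lay below the saline values in 8 members (28.6%, beside 24.6% of all genes) and all above them in 2 members, whereas 24.1% of all genes lay all above, so that groups were separate in 48.7% of all genes. FOS, the classic member, did not pass the test, and its interval ran from -0.21 to 0.11 on the log2 scale. That interval reflects the spread between libraries and not between animals. The edgeR quasi-likelihood test on recovered reads called 8 members lower and 0 higher, where 17.7% and 16.3% of all genes were called, and DESeq2 called 7 lower and 0 higher, where 18.9% and 18.0% were called (36.8% in all). With a minimum mean of 50 in place of 10, limma had 7 members that fell, beside 19.3% of all genes. In edgeR, in DESeq2 and with that minimum, the share of members that fell lay above that of all genes, a difference that was not tested. Without any 1 of the 6 libraries only 2 members fell in limma, in a design where the count over all genes dropped too, from 4631 to between 2536 and 3181. EGR2 was 1 of the 2 each time, and the other was not always the same gene. Without saline library 2 it was ATF3, which had not passed with all 6 libraries.

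**Figure D1:**
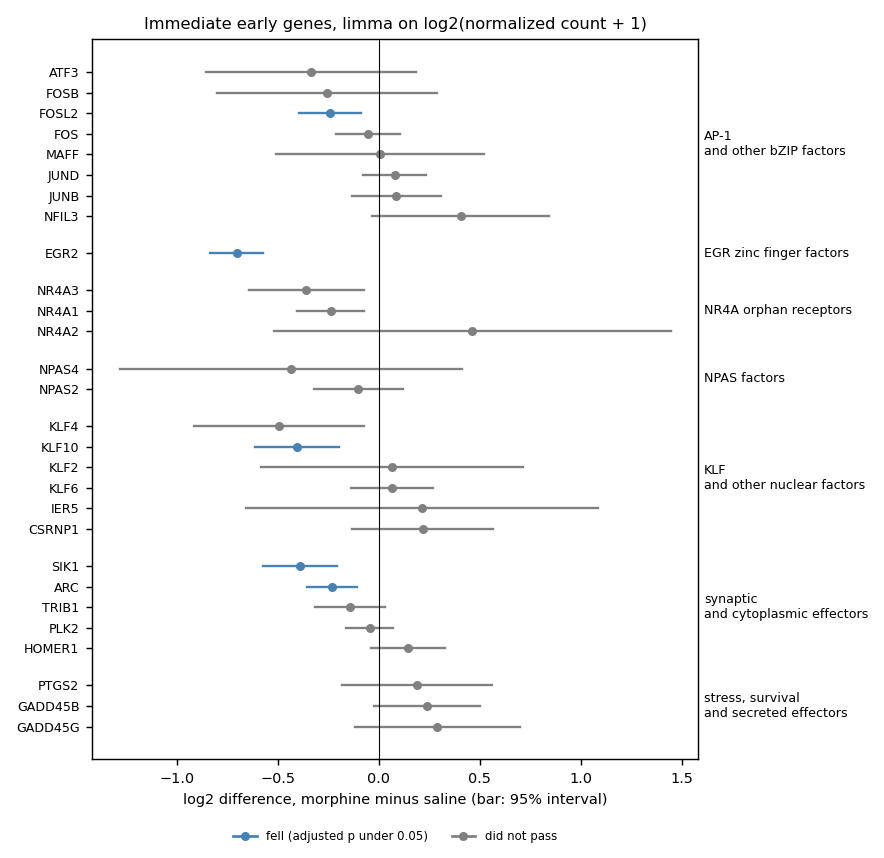
Log2 difference between morphine and saline (horizontal axis; morphine minus saline, limma on log2(normalized count + 1)) for the 28 immediate early genes, grouped by role, with bars for the 95% interval and blue for genes that fell at an adjusted p under 0.05. EGR2 lies farthest to the left with a short bar, 5 genes are blue, no gene rose, and NR4A2, NPAS4 and IER5 have the bars that reach beyond a 2-fold change.

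EGR2 showed the largest difference of the members. EGR2 (ENSMMUG00000010256), a zinc finger transcription factor also called Krox20 and known outside cortical neurons for its part in peripheral myelination, was present at 449.6, 434 and 421 normalized counts in morphine libraries 1, 2 and 3 and at 720.3, 714 and 691 in saline libraries 1, 2 and 3. The groups lay far apart, and the morphine mean was 61.4% of the saline mean. The log2 difference was -0.70 ± 0.0521 (SE; 95% interval -0.83 to -0.57), with a limma adjusted p of 0.00263. The libraries of a group differed little, with a pooled coefficient of variation (CV, the SD as a percentage of the mean) of 2.80%. Counting noise alone gives 4.18% at this depth, so the spread seen in these few libraries likely understates the true spread. EGR2 passed in all 17 alternative analyses, with adjusted p between 0.0141 and 0.0171 when 1 library was left out. It was also the only member in the authors' deposited table of a subset of genes, whose name points to a fold change cutoff. Its log2 fold change there was -0.70 ± 0.124. In the authors' full comparison 7 members were lower and 0 higher at an adjusted p under 0.05, where 15.2% and 14.3% of all genes were. EGR1, EGR3 and EGR4 were not analysed here, so it cannot be said whether the family moved together.

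AP-1 proteins bind DNA as dimers of a FOS or related protein with a JUN protein. Among their genes, FOSL2, of the FOS family, fell and the others did not pass. FOSL2 (Fra-2; ENSMMUG00000014464) was present at 685, 762 and 747 normalized counts in morphine libraries 1, 2 and 3 and at 883, 849.98 and 858 in saline libraries 1, 2 and 3. The groups did not overlap, but the gap between the highest morphine and the lowest saline value was small. The difference was -0.24 ± 0.0612 (SE; 95% interval -0.40 to -0.09), with a limma adjusted p of 0.0399, and this call was lost in DESeq2 (adjusted p = 0.0519), in the authors' deposited table (adjusted p = 0.0772) and in limma without morphine library 1, 2 or 3 (adjusted p = 0.091, 0.0709 and 0.0879) or saline library 1, 2 or 3 (adjusted p = 0.105, 0.0862 and 0.0936).

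FOS (ENSMMUG00000040100), the AP-1 subunit most used as a marker of activity, stood at 964, 937 and 880.1 normalized counts in morphine and 994, 970.3 and 919 in saline libraries 1, 2 and 3, values that overlap. Its difference was -0.05 ± 0.0623 (95% interval -0.21 to 0.11; limma adjusted p = 0.568). FOSB, whose splice form deltaFosB is known to accumulate in reward regions during repeated drug exposure, was low in these cortical libraries: 63.8, 41.8 and 37.5 normalized counts in morphine and 59.2, 50.1 and 58.0 in saline libraries. Morphine library 1 had the highest FOSB value of all 6 and morphine library 3 the lowest. The difference was -0.26 ± 0.214 (95% interval -0.80 to 0.29), too wide to show or exclude a change of this size, and counts per gene do not separate the splice forms. The JUN family genes JUNB (0.09 ± 0.0875) and JUND (0.08 ± 0.0613) differed by less than their intervals. JUND is known to be expressed without stimulation. No difference beyond 0.31 on the log2 scale lay within the interval of JUNB or JUND. ATF3, a stress-induced relative, had 61.6, 73.5 and 71.1 normalized counts in morphine and 104.6, 64.1 and 97.0 in saline libraries. Saline library 2 lay among the morphine values, and ATF3 passed only when that library was left out (difference -0.55, limma adjusted p = 0.0387). The small MAF protein gene MAFF was level between groups (0.00 ± 0.203), with morphine library 2 and saline library 3 highest.

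NFIL3, a bZIP repressor, was 1 of 2 members whose morphine values all lay above the saline values. It had 244, 267 and 226 normalized counts in morphine and 191, 225.5 and 146.6 in saline libraries 1, 2 and 3, where the lowest morphine value barely exceeded the highest saline value. The difference of 0.40 ± 0.174 (95% interval -0.04 to 0.84) did not pass in limma (adjusted p = 0.144), edgeR (adjusted p = 0.133) or DESeq2 (adjusted p = 0.141).

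The NR4A genes encode orphan nuclear receptors that act without a known ligand and are induced by calcium and cyclic AMP. NR4A1 (Nur77) stood at 1958, 2166 and 1945 normalized counts in morphine and 2369, 2316 and 2464 in saline libraries 1, 2 and 3. NR4A3 (NOR1) stood at 449.6, 389 and 502 in morphine and 607, 570.3 and 534 in saline libraries. In both genes every morphine library lay below every saline library. The differences were -0.24 ± 0.0658 for NR4A1 (limma adjusted p = 0.0501) and -0.36 ± 0.113 for NR4A3 (limma adjusted p = 0.0699), so neither passed in limma, NR4A1 by the narrowest margin. NR4A1 and NR4A3 passed in edgeR (adjusted p = 0.0185 and 0.0471) and in DESeq2 (adjusted p = 0.00345 and 0.0312). NR4A2 (Nurr1) showed another pattern, at 582, 467 and 589.95 normalized counts in morphine and 225, 620.4 and 439 in saline libraries. Saline library 1 was the lowest and saline library 2 the highest of the 6, so the spread within the saline group covered the whole range, and the difference of 0.46 ± 0.388 had an interval from -0.52 to 1.44. Without saline library 1 that difference was 0.06.

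The 2 NPAS genes, which encode bHLH-PAS factors, did not pass. NPAS4, the factor that is induced by calcium in neurons and shapes inhibitory synapses, had the lowest mean of the members, with 34.0, 50.8 and 29.8 normalized counts in morphine and 37.5, 45.1 and 77.0 in saline libraries 1, 2 and 3. Saline library 3 stood above the other 5, which overlapped, and the difference of -0.44 ± 0.334 had an interval from -1.28 to 0.41. NPAS2, a clock factor that pairs with BMAL1, stood between 1486 and 1821 normalized counts in all libraries (difference -0.10 ± 0.0864).

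Of 6 KLF and other nuclear factor genes measured, KLF10 fell. KLF10 (ENSMMUG00000018815), a zinc finger repressor induced by TGF-beta, had 870.4, 891 and 748 normalized counts in morphine and 1110.1, 1119 and 1085 in saline libraries 1, 2 and 3. The saline values lay close together and well above the morphine values. The difference was -0.41 ± 0.0823 (SE; 95% interval -0.61 to -0.20), with a limma adjusted p of 0.0221, and it passed in edgeR and DESeq2 (adjusted p = 0.00749 and 0.000319). In limma it did not pass without morphine library 1 (adjusted p = 0.0534) or without saline library 1, 2 or 3 (adjusted p = 0.0642, 0.0673 and 0.0578).

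KLF4 (ENSMMUG00000006088), known from stem cells and from blood vessels, had 433, 554 and 458 normalized counts in morphine and 608, 607 and 829.97 in saline libraries 1, 2 and 3. All morphine values lay below all saline values, but saline library 3 stood apart from the other 2. The difference of -0.49 ± 0.166 (95% interval -0.91 to -0.07) did not pass in limma (adjusted p = 0.0834) and passed in edgeR (adjusted p = 0.0357) and DESeq2 (adjusted p = 0.004). KLF2, its relative in vessel walls, varied widely in both groups, at 959.7, 609 and 897 in morphine and 582, 929 and 848 in saline libraries (difference 0.06 ± 0.256). KLF6 (0.06 ± 0.0804), CSRNP1 (0.22 ± 0.137) and IER5 (0.21 ± 0.344) did not pass. For IER5 saline library 3 stood at 141 normalized counts, under the other 5, which lay between 234 and 329.

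Among the measured genes listed as synaptic and cytoplasmic effectors, SIK1 and ARC fell and PLK2, HOMER1 and TRIB1 did not pass. SIK1 (ENSMMUG00000020050), a kinase that is induced through CREB and in turn keeps the CREB coactivators of the CRTC family out of the nucleus, had 1233, 1109 and 1095 normalized counts in morphine and 1480.1, 1576 and 1447 in saline libraries 1, 2 and 3. Morphine library 1 was the highest of its group and still lay well under every saline library. The difference was -0.39 ± 0.0716 (SE; 95% interval -0.57 to -0.21), with a limma adjusted p of 0.017, and it did not pass in limma without morphine library 2 or 3 (adjusted p = 0.0606 and 0.0564) or saline library 2 (adjusted p = 0.0517).

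ARC (ENSMMUG00000018519), a cytoskeleton-associated protein whose transcript travels to active dendrites and which promotes the removal of AMPA receptors, had 8282, 8534 and 8623 normalized counts in morphine and 9934, 9744 and 10169.5 in saline libraries 1, 2 and 3. The groups were separate and each was tight, with a pooled CV of 2.11%. The difference was small, -0.23 ± 0.0486 (SE; 95% interval -0.35 to -0.11), with a limma adjusted p of 0.0243. ARC passed in edgeR and DESeq2 (adjusted p = 0.00124 and 1.68e-07). It was lost in limma without morphine library 1, 2 or 3 (adjusted p = 0.0766, 0.0727 and 0.0634) or saline library 1, 2 or 3 (adjusted p = 0.0663, 0.0537 and 0.0718), although the difference then stayed between -0.25 and -0.21.

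HOMER1, a postsynaptic scaffold whose short form is the activity-induced transcript, was the other member with all morphine values above saline, at 885, 976 and 833 normalized counts against 817, 809.9 and 806. The difference of 0.14 ± 0.0726 (95% interval -0.04 to 0.33) did not pass in limma (adjusted p = 0.197), and counts per gene do not separate the short form from the long ones. PLK2, a kinase that scales down active synapses, was the steadiest member, between 3991 and 4229 normalized counts in all 6 libraries, with a pooled CV of 1.55% and a difference of -0.05 ± 0.0464 (95% interval -0.16 to 0.07). TRIB1, a pseudokinase, differed by -0.14 ± 0.0683 (limma adjusted p = 0.176), with its values overlapping.

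**Figure D2:**
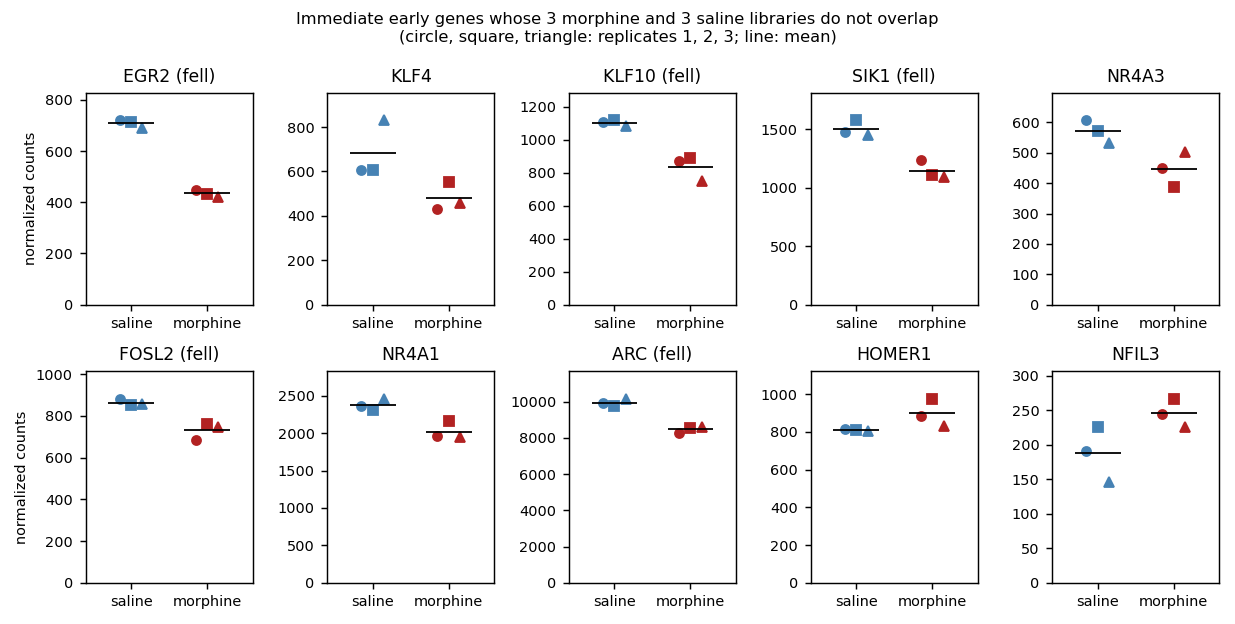
Normalized counts (vertical axes, from 0) in each library for the 10 immediate early genes whose groups do not overlap, saline in blue and morphine in red, with a line at the mean of 3 libraries and the marker shape giving the replicate. Morphine lies below saline in 8 panels and above it in HOMER1 and NFIL3, and the gap between groups is widest relative to the spread in EGR2.

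The 3 remaining members, GADD45B, GADD45G and PTGS2, all had higher means with morphine, and none passed the test. GADD45B, a stress protein linked to activity-dependent DNA demethylation, had 800.3, 832 and 922 normalized counts in morphine and 716, 649 and 803 in saline libraries 1, 2 and 3. Only saline library 3 reached the morphine values, and the difference was 0.24 ± 0.103 (95% interval -0.02 to 0.50; limma adjusted p = 0.146). GADD45G differed by 0.29 ± 0.161 and PTGS2, the inducible cyclooxygenase of prostaglandin synthesis, by 0.19 ± 0.147, with overlapping groups in both. The intervals of 25 of the 28 members lay within a 2-fold change in either direction, beside 12346 of all 16595 genes tested. Those of NR4A2, NPAS4 and IER5 did not.

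The members differed in how much libraries of a group varied. The pooled CV had a median of 8.32% over the members and of 9.68% over all genes tested, and it lay above the median of genes of like level (deciles of the mean) in 15 of 28 members, beside 49.9% of all genes. It ran from 1.55% in PLK2 to 33.9% in NR4A2 and 34.6% in NPAS4. NPAS4 was low enough that counting noise alone gives 14.8%, whereas for NR4A2 it gives 4.52%. IER5 (29.6%), KLF2 (22.9%) and MAFF (20.2%) also varied far beyond the counting noise of 6.14%, 3.52% and 6.18%. The libraries with extreme values were not the same from gene to gene: saline library 1 was low for NR4A2 and KLF2, saline library 3 was low for IER5 and high for NPAS4 and KLF4, and morphine library 2 was low for KLF2 and NR4A2 and high for MAFF. Morphine library 3 was the lowest of its group in 17 of 28 members (60.7%), while it was lowest in 32.8% of all genes tested.

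**Figure D3:**
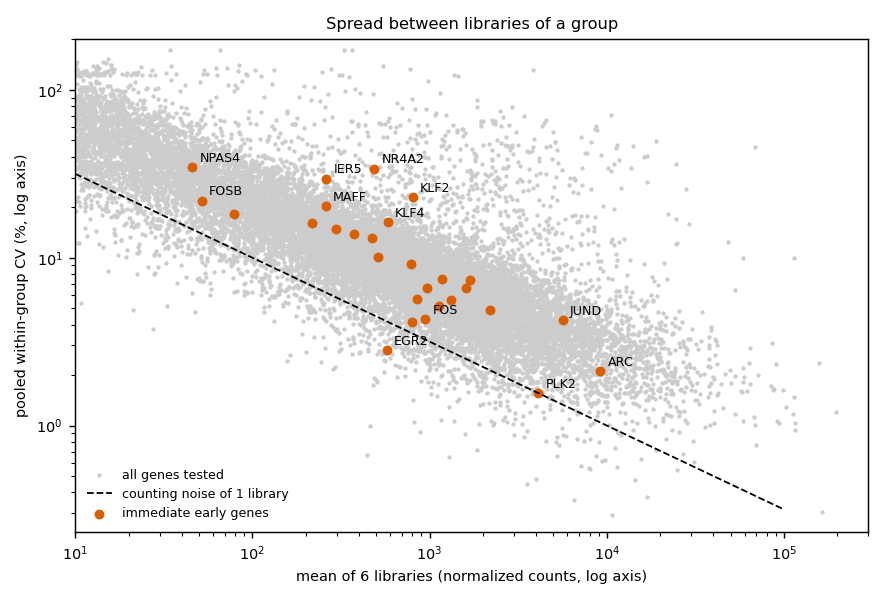
Pooled within-group CV (vertical, log axis, percent) against the mean of 6 libraries (horizontal, log axis, normalized counts) for all 16595 genes tested (grey) and the 28 immediate early genes (orange), with a dashed line for the counting noise of 1 library. NR4A2, IER5 and KLF2 lie far above the dashed line, while EGR2 and PLK2 lie on or under it.

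In the main limma test, genes of the route that drives immediate early transcription were called at about the rate of all genes. Of 39 genes listed for the ERK, SRF, CREB and MEF2 route 36 were measured. Of these 6 rose and 5 fell (16.7% and 13.9%, beside 12.9% and 15.0% of all genes), so in that test the counts do not set the route apart. In edgeR and in DESeq2 20 of the 36 were called, 10 higher and 10 lower, a larger share than the 34.0% and 36.8% of all genes. Limma with an intensity trend and the authors' deposited comparison also called 20, where 34.4% and 29.5% of all genes were called. Whether the route differs from all genes was not tested. RASGRF2, an exchange factor that links calcium to RAS, fell from 9150.4 ± 371 to 5638 ± 24.4 normalized counts (SD, n = 3 libraries per group; limma adjusted p = 0.00266). The RSK kinases, which ERK activates, went in opposite directions: RPS6KA3 fell by 0.63 and RPS6KA1 rose by 0.62 on the log2 scale. ELK3, an SRF partner that can repress, fell by 0.60. CALM2, 1 of 3 calmodulin genes, fell by 0.40, an uncertain value, since the calmodulin copies are nearly identical and can share reads. CRTC3, a CREB coactivator, rose by 0.31, but not without morphine library 1 or 2 (limma adjusted p = 0.0678 and 0.0703) or saline library 1, 2 or 3 (limma adjusted p = 0.0501, 0.0612 and 0.0565).

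CREB1, SRF and MEF2C, nuclear factors that bind immediate early promoters, did not pass, while ELK3, which binds them with SRF, fell as given above. CREB1 had a difference of -0.21 ± 0.118 (limma adjusted p = 0.247). SRF had 2978 normalized counts in morphine library 1 and between 1364 and 1591 in the other 5 libraries. MEF2C split the libraries without regard to group. Morphine libraries 1 and 2 and saline library 1 stood at 7805, 8427 and 7726. Morphine library 3 and saline libraries 2 and 3 stood at 16795, 22372 and 21179.6. MEF2A, named after its values were seen, split them along another line and did not pass. It had 1836, 6595 and 6321 normalized counts in morphine and 6538, 1638 and 6950 in saline libraries 1, 2 and 3.

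Other activity-regulated genes, many of them induced later than the immediate early genes, included BDNF and 9 others that fell. Of 42 listed 31 were measured, of which 10 fell and 3 rose (32.3% and 9.68%, beside 15.0% and 12.9% of all genes), with a median log2 difference of -0.26, and without 1 library 8 to 10 of them changed, where 15.3% to 19.2% of all genes did. BDNF, the neurotrophin induced by activity, had 406, 397 and 395 normalized counts in morphine and 658, 678 and 535 in saline libraries 1, 2 and 3, a fall of 0.63 ± 0.104 (SE) on the log2 scale (limma adjusted p = 0.0127). PCSK1, a protease that cleaves neuropeptide precursors, fell by 0.71, SYT4, a synaptotagmin of dense-core vesicles, fell by 0.63, SPRED1, an inhibitor of RAS-ERK signalling, fell by 0.52 and PPP1R3C, a glycogen-targeting subunit of protein phosphatase 1, fell by 0.52. PER1, a clock gene induced through CREB and by glucocorticoids, rose by 0.35. That this list and the 28 members differ in their share of falls was not tested. The list was chosen with earlier results of these data known, so its share of falls may in part reflect that choice.

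**Figure D4:**
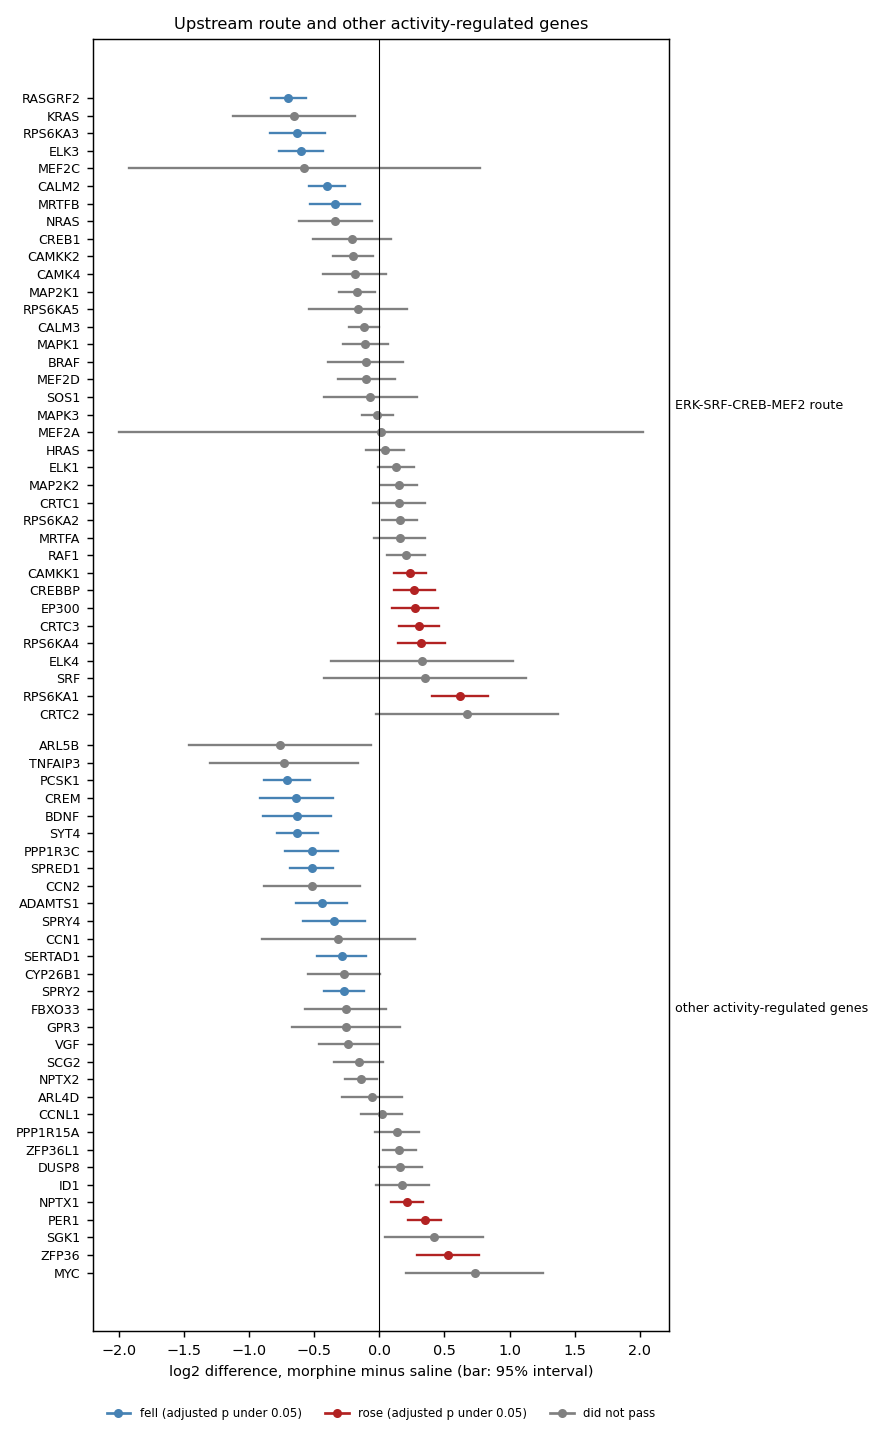
Log2 difference (horizontal axis; morphine minus saline) with its 95% interval for 36 genes of the upstream route and 31 other activity-regulated genes, blue where the gene fell and red where it rose at an adjusted p under 0.05. The upstream genes spread to both sides, while 10 of the other activity-regulated genes are blue and 3 are red.

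Markers of neurons and of other cells also differed between the groups, with members of most lists called in both directions, and in bulk samples fewer cells of a type and less RNA per cell cannot be told apart. Falls were called in 6 and rises in 2 of the 12 pan-neuronal markers (beside 15.0% and 12.9% of all genes, the background of each marker count given here), whose summed level was 217658 to 222073 normalized counts in morphine and 271604 to 280911 in saline libraries. SNAP25, the most abundant of them, fell by 0.54, NEFL, a neurofilament gene, by 0.73 and NEFM, another, by 0.57. RBFOX3 (NeuN) and TUBB3, named after their values were seen because they went against the others, rose by 0.22 and 0.23. RBFOX3 and TUBB3 passed in edgeR (adjusted p = 0.0012 and 0.00322) and in DESeq2 (adjusted p = 3.82e-08 and 3.05e-06). Neither passed in limma when any 1 library was left out (adjusted p = 0.0608 to 0.0933 for RBFOX3 and 0.0656 to 0.0929 for TUBB3). UCHL1 (0.19) and THY1 (0.08) did not pass. Among the 9 markers of excitatory neurons there were 2 falls, NRGN (-0.22) and RORB (-0.41), and 0 rises. The 9 markers had a summed level of 197856 to 199332 against 216031 to 218336. The difference was below 0 in 6 of the 9 (66.7%, beside 49.4% of all genes). It was above 0 in 3, TBR1 (0.22), NEUROD2 (0.09) and SLC17A7 (0.04), none of which passed. TBR1, NEUROD2 and SLC17A7 were named after their values were seen. The summed level of the 28 immediate early genes was 35737 to 36473 in morphine and 38414 to 39017 in saline libraries, that is 93.4% of saline, beside 79.9% for the pan-neuronal and 91.5% for the excitatory markers. A few abundant genes carry these sums: ARC made up 57.8% of the difference of the members, SNAP25 56.8% of that of the pan-neuronal and CAMK2A, which did not pass, 54.3% of that of the excitatory markers. Without ARC the members summed to 96.3% of saline, and without SNAP25 the pan-neuronal markers to 86.2%. All genes tested summed to 97.2% of saline, the background of each summed level given here. The median log2 differences of the members, the pan-neuronal and the excitatory markers were -0.05, -0.23 and -0.13. NRGN was lost in limma without morphine library 1, 2 or 3 (adjusted p = 0.072, 0.0826 and 0.0683) or saline library 1, 2 or 3 (adjusted p = 0.0716, 0.0539 and 0.0701). RORB was lost in limma without morphine library 1, 2 or 3 (adjusted p = 0.1, 0.102 and 0.0557) or saline library 1 or 3 (adjusted p = 0.0829 and 0.0734). NRGN and RORB passed in edgeR (adjusted p = 0.000105 and 0.0237) and in DESeq2 (adjusted p = 1.05e-11 and 0.0129).

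Of 8 inhibitory neuron markers 2 rose and 1 fell (25897 to 27935 against 25104 to 25947), with SST up by 0.53 and VIP down (-0.57). Of 8 astrocyte markers 5 fell and 1 rose (176996 to 178716 against 232379.7 to 238952), with SLC1A3, which fell by 0.58, making up 71.5% of the difference. GJA1 fell by 0.94, whereas GFAP, also named after its value was seen, rose by 0.41, and FGFR3 (-0.02) and GJB6 (-0.07) did not pass. Of 5 microglia markers measured of 10 listed, 4 rose and 1 fell (7405 to 7873 against 4985 to 5287), TREM2 rising by 1.69 and CSF1R by 0.87, while P2RY12, named after its value was seen, fell by 0.47. Of 7 oligodendrocyte markers 3 rose and 2 fell (265811 to 268049.6 against 259685 to 264231), and of 5 precursor markers 3 rose and 0 fell (23086 to 23791 against 19084 to 19217), OLIG2 by 0.52. Of 7 endothelial and mural markers, the cells in which KLF2 and KLF4 are best known, 3 fell and 1 rose (9738 to 10219.5 against 11787.5 to 11993), RGS5 by -0.68 and ACTA2 by 0.78. No marker measured was at 0 in any library, and the part of these shifts in the falls of EGR2, SIK1, KLF10, ARC, FOSL2 and the other activity-regulated genes was not tested.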

How the data were processed

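Values for 23191 genes were deposited by the authors as normalized counts, that is a signal equal to reads over the size factor of each library, as the column names and values show. It also holds the authors' log2 fold changes with standard errors, test statistic (a score) and p-values, raw and adjusted, and a second deposited table holds a subset. Divided by what 1 read is worth, 100% of the values of each library were whole within 0.001. Tools named in the submitters' processing notes, without roles, are DESeq2 1.18.1, Bowtie2 2.1.0 and StringTie, and the build named is hg19, although the gene identifiers are rhesus, so no coordinates are given. The sources do not give whether strand was used. Symbols came from a table of gene names that matched 15436 identifiers (66.6%).

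Groups and replicate numbers came from sample titles. Groups were compared with limma (version 3.58.1, R 4.3.3) on log2(value + 1) with group as the only term, no intensity trend and no robust estimation, over genes with a mean of at least 10, two-sided, with Benjamini-Hochberg adjustment over all genes tested. The prior degrees of freedom were 1.27. Fold changes on this scale understate changes of low genes. Libraries of a group differed by more than sampling noise (mean chi-square per gene 17.5 to 23.8, where noise gives 1). Alternatives were TMM and upper-quartile scaling, no filter, a minimum mean of 50, a pseudocount of 0.5 or 5, a block for the replicate number, omission of each library, limma with an intensity trend, edgeR 4.0.16 and DESeq2 1.42.0 on recovered reads, which called 5636 and 6105 genes, and the authors' comparison. Scripts were tested on simulated data. Plots were made in Python 3.11.15 with matplotlib 3.10.9.

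The members and lists were chosen with earlier results of these data known. Any member could be named, and those that passed, or whose groups do not overlap with a difference over 0.25, were to be given in each library. Of the upstream and of the other activity-regulated genes the 6 with the smallest adjusted p were named, with BDNF, SRF, CREB1 and MEF2C. Of each marker list the most abundant gene and up to 2 changed genes were to be named, of which some are left out. RBFOX3, TUBB3, GFAP, P2RY12, UCHL1, THY1, FGFR3, GJB6, TBR1, NEUROD2, SLC17A7 and MEF2A were named after their values were seen. A planned search of promoters for motifs was not run.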

Additional observations from a re-analysis of the deposited data

How the results depend on the processing

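Of the 5 members that fell, EGR2 passed in all 17 alternatives and the other 4 lost the call in at least 1, while 19 members passed in none and no called member reversed. The count of members that fell was 8 in edgeR and with an intensity trend, 2 without a filter and 1 with the replicate number as a block, and no member rose in any alternative. Over all genes 4631 changed (27.9%), against 2993 (12.9%) without a filter, 1577 (9.5%) with the block, 36.8% in DESeq2, 34.0% in edgeR, 34.4% with an intensity trend and 29.5% in the authors' deposited comparison, and the counts of each list below are to be read beside these shares. The upstream route, with 11 changed, had 20 in DESeq2, in edgeR, with an intensity trend and in the authors' deposited comparison, 5 without a filter and 4 with the block. The other activity-regulated genes, with 13 changed, had 22 in DESeq2, 21 in the authors' deposited comparison and 4 with the block. Same-numbered libraries did not deviate together across genes (correlations -0.056, -0.0039 and -0.028 for replicates 1, 2 and 3), and no library correlated best with its own number, so the numbers were not taken as pairs. Without 1 library the counts were 2536 to 3181 over all genes, 2 for members that fell, 0 for members that rose, 5 to 7 for the upstream route and 8 to 10 for the other activity-regulated genes. Members that never passed and changed sign were MAFF (-0.18 without morphine replicate 2, -0.01 without saline replicate 1, -0.10 without saline replicate 2), KLF2 (-0.06 and -0.01 without morphine replicates 1 and 3, -0.14 without saline replicate 1), KLF6 (-0.0029 without morphine replicate 1) and IER5 (-0.15 without saline replicate 3). With 1 library left out their highest values were 0.12 for MAFF, 0.27 for KLF2, 0.13 for KLF6 and 0.45 for IER5. Depth limits mainly NPAS4, FOSB and ATF3, whose counting noise alone exceeds 11% in each library.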
